A study of Mus musculus with 6 samples.

Results

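The 40 genes described here are markers of macrophages and of the monocytes that replenish them, measured in mouse left ventricles after myocardial infarction (MI). They were picked by symbol from a list of 10 general macrophage genes, 4 genes of resident macrophages, 3 genes of recruited monocytes, 8 inflammatory genes, 11 genes of repair and uptake and 4 genes of MHC class II antigen presentation. All 40 were among the 15909 genes measured. The CCN3 group had surgical MI by ligation of a coronary artery and received recombinant human CCN3, a secreted matricellular protein, at 6 µg/kg by intraperitoneal injection. The PBS group had the same surgery and received the vehicle PBS. The study describes the mice of its CCN3 experiments as adult C57/B6 animals, and both groups were collected at 4 days post injury (dpi). There were 3 libraries of each group, and the sources differ on how many daily doses came before collection. The labels do not say whether each library came from a separate animal, so the p-values measure the spread between these libraries.

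Macrophages engulf dead cells and debris and give out both inflammatory and repair signals. The healthy mouse heart holds resident macrophages that largely maintain themselves, commonly marked by TIM4, LYVE1 and FOLR2. After MI, Ly6C-high monocytes enter from the blood, mature into macrophages in the injured muscle and over days pass from an inflammatory to a reparative program. Many of the marker genes are shared between these stages, and several are also used by fibroblasts, dendritic cells or B cells.

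Values are log2 CPM, in which each step of 1 doubles the share of reads, from which the authors had taken out 2 estimated factors of unwanted variation (RUV). Log2FC is the CCN3 mean minus the PBS mean, so that a negative value is lower with CCN3, and is given ± SE with n = 3 libraries per group. Genes were tested in limma with Benjamini-Hochberg adjustment over all 15909 genes and passed if the adjusted p was below 0.2, which is the threshold of the study. Library sums lay between 1001640 and 1031630 CPM, pairs of libraries correlated at 0.989 to 0.998 over the genes, and read depth is unknown from these values. The removal of the 2 factors left only 2 free patterns of variation between libraries of the same group, so genes that share a library order within groups are not independent of each other.

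Of the 40 macrophage and monocyte genes, the 4 with the smallest p-values were 1 resident and 2 monocyte genes that were lower with CCN3 and 1 repair gene that was higher. Timd4 and Ly6c2 had 70.1% and 61.8% of their PBS level, Plac8 had 82.9%, and Lgals3 had 120% of its PBS level. None of the 40 passed, with a lowest adjusted p in limma of 0.215 for Plac8, whereas 254 of all genes (1.6%) passed, of which 82 rose and 172 fell. At an unadjusted p under 0.05 there were 5 lower genes (Plac8, Timd4, Ly6c2, Fcgr1 and Il10) and 2 higher genes (Lgals3 and Spp1), beside 6.59% of all genes lower and 4.05% higher at the same threshold. The 3 CCN3 libraries lay below the 3 PBS libraries without overlap for 8 genes and above them for 3 genes, compared with 18.2% and 15.1% of all genes. The median Log2FC of the 40 genes was -0.05, and that of all genes was -0.0018, with 24 of the 40 negative and 16 positive. In RNA from whole ventricles, fewer cells of a type and less RNA per cell cannot be told apart.

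**Figure D1:**
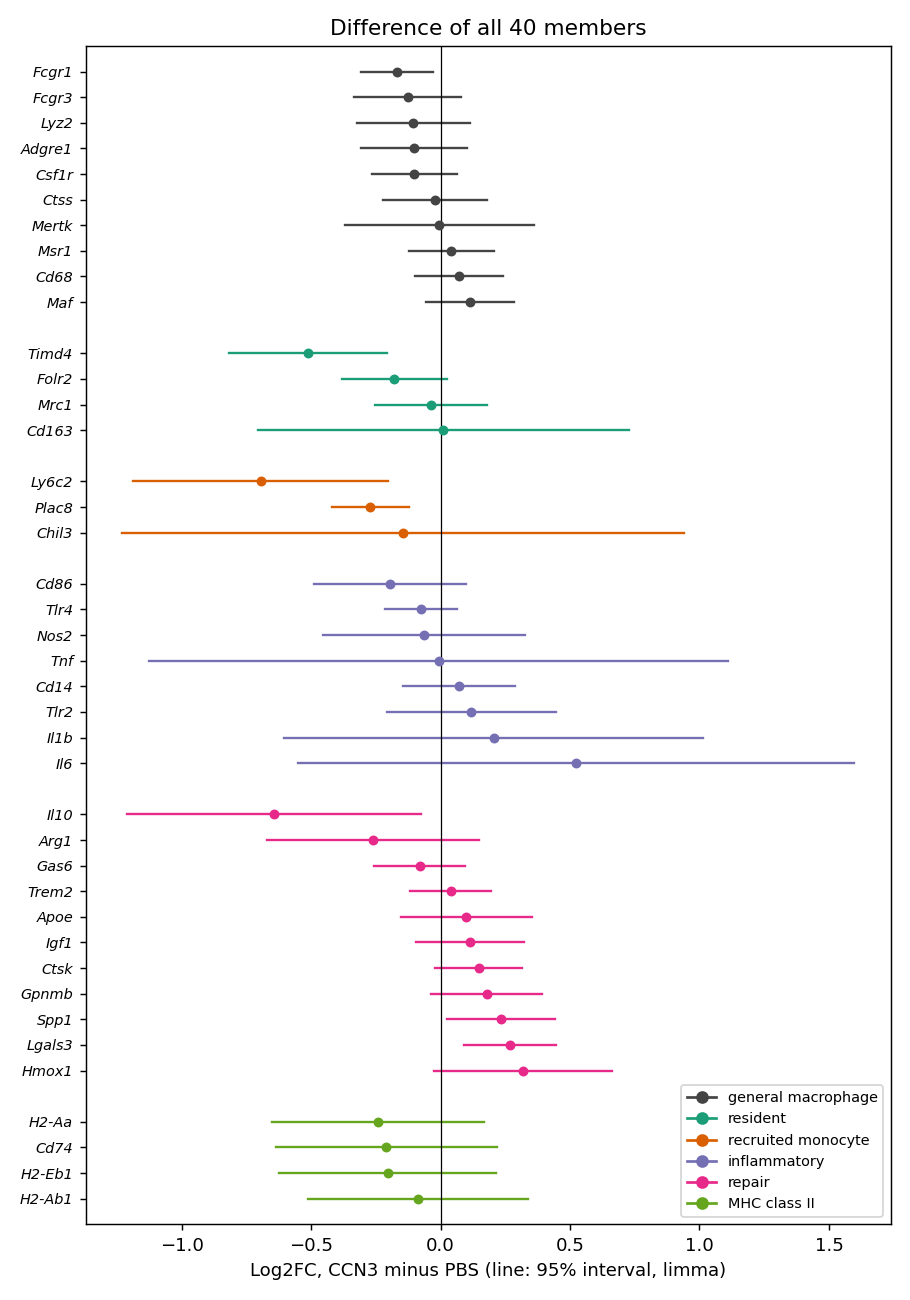
Log2FC (CCN3 minus PBS, log2 CPM) of each of the 40 genes, grouped and coloured by subclass, with 95% confidence intervals from limma (n = 3 libraries per group). The lowest point is Ly6c2 at -0.70 and the highest is Il6 at 0.52, which has one of the widest intervals.

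The call that no macrophage gene passed depended on single libraries. Each library was left out in turn with the removed factors held fixed, which leaves 1 residual degree of freedom. The value of such a fit, called the adjusted Log2FC, is the treatment coefficient adjusted for these factors. It can differ in size and sign from the difference between the means of the remaining libraries. Without PBS replicate 2, 8 genes passed, namely Cd163, Cd74, Chil3, H2-Aa, H2-Ab1, H2-Eb1, Lgals3 and Ly6c2. Without CCN3 replicate 2 the count was 5 (Arg1, Cd163, Chil3, Il1b and Il6), beside 553 of all genes. Hmox1 and Ly6c2 passed without CCN3 replicate 1, beside 56 of all genes, and Arg1 and Chil3 without PBS replicate 1, beside 494 of all genes. Without CCN3 replicate 3 or PBS replicate 3, 0 of the 40 and 0 of all genes passed. In these last fits 3 of the 40 genes each had an unadjusted p under 0.05 in limma. The sign of the adjusted Log2FC held in each of these 6 fits for 15 of the 40 genes and changed in at least 1 for the other 25. Among the 15 were all 7 genes with an unadjusted p under 0.05. The 6 fits reuse the libraries that gave those p-values, so this is not separate support for the 7 genes.

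The 4 resident genes had a median Log2FC of -0.11, with 3 negative and 1 positive. Timd4 encodes TIM4, a receptor for phosphatidylserine on dying cells that marks resident heart macrophages in mice, and lies at chr11:46701620-46735177 on the plus strand (GRCm39). Timd4 had 2.21, 2.26 and 2.36 log2 CPM in CCN3 replicates 1, 2 and 3, against 2.90, 2.75 and 2.72 log2 CPM in PBS replicates 1, 2 and 3. All 3 CCN3 libraries were below all PBS libraries, with a gap wider than the spread within either group. The Log2FC was -0.51 ± 0.13 (95% interval -0.82 to -0.21, limma, p 0.00572, adjusted p 0.238). With 1 library left out the adjusted Log2FC of Timd4 lay between -0.66 and -0.44. Folr2, which encodes folate receptor beta, another surface marker of resident macrophages, separated the groups by a narrower margin. Folr2 measured 4.88, 4.89 and 5.0 log2 CPM in CCN3 replicates 1, 2 and 3, against 5.23, 5.04 and 5.04 log2 CPM in PBS replicates 1, 2 and 3. The Log2FC of Folr2 was -0.18 ± 0.08 (limma, p 0.0758, adjusted p 0.529).

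Mrc1 and Cd163 encode scavenger receptors, the mannose receptor CD206 and the haemoglobin-haptoglobin receptor CD163, and are carried by resident as well as repair macrophages. Mrc1 stood at 7.79, 8.04 and 8.03 log2 CPM in CCN3 replicates 1, 2 and 3, against 7.96, 8.07 and 7.94 log2 CPM in PBS replicates 1, 2 and 3. The groups overlapped, and the Log2FC was -0.04 ± 0.09 (limma, adjusted p 0.932). Cd163 was at 5.26, 6.18 and 5.91 log2 CPM in CCN3 replicates 1, 2 and 3, against 5.35, 6.23 and 5.74 log2 CPM in PBS replicates 1, 2 and 3. Replicate 1 was the lowest and replicate 2 the highest for Cd163 in both groups, and this spread was wider than the Log2FC of 0.0098 ± 0.30 (limma, adjusted p 0.996). With CCN3 replicate 2 left out the adjusted Log2FC of Cd163 was -0.70 and it passed, and with PBS replicate 2 left out it was 0.55 and it passed too. Both are adjusted for the removed factors and are not differences between the library means.

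Among 13 further resident-associated genes, 1 fell and 0 rose, with 7 positive and 6 negative differences between -0.57 and 0.59 and a median Log2FC of 0.13. CCN3 libraries lay wholly below PBS libraries for 2 of the 13, Mgl2 and the chemokine gene Ccl8, which was named after its values were seen and had a Log2FC of -0.42 ± 0.16 (limma, p 0.0344, adjusted p 0.416). Lyve1, the gene of the resident marker LYVE1, was also named after its values were seen and went the other way. Its Log2FC was 0.23 ± 0.14 (limma, adjusted p 0.638), and its groups overlapped. The gene that fell was Mgl2, which encodes the galactose-type lectin CD301b found on some resident macrophages and dendritic cells. Mgl2 had 3.13, 2.97 and 3.04 log2 CPM in CCN3 replicates 1, 2 and 3, against 3.73, 3.52 and 3.61 log2 CPM in PBS replicates 1, 2 and 3. The CCN3 level was 67.2% of the PBS level, with a Log2FC of -0.57 ± 0.11 (limma, adjusted p 0.177). It did not pass without any 1 of the CCN3 libraries or without PBS replicate 3. Over the 6 fits its adjusted p in limma was 0.0571 to 0.827, although its adjusted Log2FC stayed between -0.69 and -0.43. Its close copy Clec10a, next to it on chromosome 11, had a Log2FC of 0.21 ± 0.15 (limma, adjusted p 0.694), and reads that both genes could explain make the split between them uncertain.

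**Figure D2:**
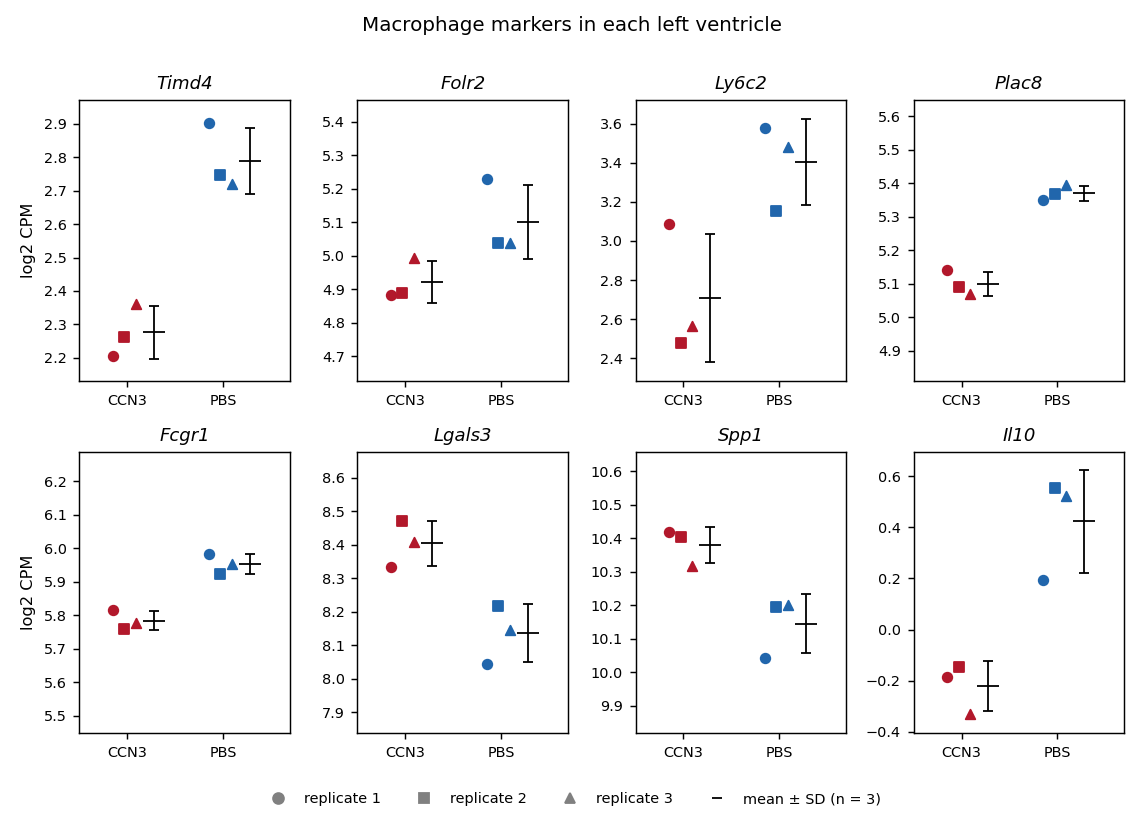
Log2 CPM of 8 macrophage genes in each library, CCN3 left of PBS, with replicates by symbol and the mean ± SD (n = 3) beside the points; each panel has its own range and does not start at 0. In each panel the groups do not overlap, with CCN3 lower for Timd4, Folr2, Ly6c2, Plac8, Fcgr1 and Il10 and higher for Lgals3 and Spp1.

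All 3 genes of recruited monocytes had a lower CCN3 mean, with a median Log2FC of -0.27. Ly6c2 encodes the Ly6C antigen by which inflammatory monocytes are sorted in mice, and lies at chr15:74980003-74988467 on the minus strand. Ly6c2 measured 3.09, 2.48 and 2.56 log2 CPM in CCN3 replicates 1, 2 and 3, against 3.58, 3.15 and 3.48 log2 CPM in PBS replicates 1, 2 and 3. The highest CCN3 library was only just below the lowest PBS library, and the Log2FC was -0.70 ± 0.20 (95% interval -1.19 to -0.20, limma, p 0.013, adjusted p 0.304). Its adjusted Log2FC ranged from -0.99 without PBS replicate 2 to -0.28 without CCN3 replicate 2, and Ly6c2 passed without PBS replicate 2 and without CCN3 replicate 1. The near-identical neighbour Ly6c1, an endothelial gene, had a Log2FC of -0.26 ± 0.10 (limma, adjusted p 0.398), and the division of reads between both copies is uncertain.

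Plac8 encodes a small cysteine-rich protein high in monocytes, and lies at chr5:100701591-100720111 on the minus strand. Plac8 stood at 5.14, 5.09 and 5.07 log2 CPM in CCN3 replicates 1, 2 and 3, against 5.35, 5.37 and 5.39 log2 CPM in PBS replicates 1, 2 and 3. The libraries of each group lay close together, so that this modest difference of -0.27 ± 0.06 (95% interval -0.42 to -0.12, limma, p 0.00417, adjusted p 0.215) gave the smallest p of all 40 genes. With 1 library left out the adjusted Log2FC stayed between -0.29 and -0.22. Chil3 encodes the chitinase-like protein Ym1, made by monocytes and by alternatively activated macrophages. Chil3 was at 4.44, 5.28 and 4.57 log2 CPM in CCN3 replicates 1, 2 and 3, against 3.94, 5.63 and 5.16 log2 CPM in PBS replicates 1, 2 and 3. Replicate 1 of both groups and CCN3 replicate 3 were low, and the Log2FC of -0.14 ± 0.45 (limma, adjusted p 0.948) was far smaller than this spread. Chil3 passed with a negative adjusted Log2FC when CCN3 replicate 2 (-1.08) or PBS replicate 1 (-0.74) was left out, and with a positive one, at 0.71, without PBS replicate 2.

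Among 10 further monocyte genes, 0 passed, 7 were negative and 3 positive, and the median Log2FC was -0.14. Ifitm6, an interferon-induced transmembrane gene high in monocytes, had the smallest p, with a Log2FC of -0.50 ± 0.16 (limma, adjusted p 0.342). For Ccr2, the chemokine receptor that draws monocytes out of the bone marrow, chosen after its values were seen, the Log2FC was -0.20 ± 0.12 (limma, adjusted p 0.613). Neutrophils share many genes with monocytes. The summed level of 9 neutrophil markers was 77.8 to 99.1 CPM in the CCN3 libraries, against 66.3 to 110 CPM in the PBS libraries. Of these markers 4 were positive and 5 negative, with a median Log2FC of -0.06, and 0 passed. The gene with the smallest p among them was Lcn2, with a Log2FC of 0.44 ± 0.17 (limma, adjusted p 0.428).

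Of the 10 general macrophage genes, 7 had a negative and 3 a positive Log2FC, with a median of -0.06. Fcgr1, which encodes the high-affinity IgG receptor CD64 used to gate heart macrophages, was the only one of them with an unadjusted p under 0.05. Fcgr1 had 5.81, 5.76 and 5.78 log2 CPM in CCN3 replicates 1, 2 and 3, against 5.98, 5.92 and 5.95 log2 CPM in PBS replicates 1, 2 and 3. The groups were apart by more than the range within either, and the Log2FC was -0.17 ± 0.06 (limma, p 0.0241, adjusted p 0.366). Fcgr3, which encodes the low-affinity IgG receptor CD16, is also made by neutrophils and NK cells. Fcgr3 measured 7.03, 7.26 and 7.26 log2 CPM in CCN3 replicates 1, 2 and 3, against 7.28, 7.38 and 7.26 log2 CPM in PBS replicates 1, 2 and 3. The CCN3 libraries lay below the PBS libraries by less than this rounding shows, and the Log2FC was -0.13 ± 0.09 (limma, adjusted p 0.669).

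Maf encodes the transcription factor c-Maf, which keeps macrophages in a mature, less inflammatory state. Maf stood at 7.15, 7.31 and 7.28 log2 CPM in CCN3 replicates 1, 2 and 3, against 7.08, 7.21 and 7.12 log2 CPM in PBS replicates 1, 2 and 3. The groups overlapped, and the Log2FC was 0.11 ± 0.07 (limma, adjusted p 0.647). The most abundant general macrophage genes were Lyz2, which encodes lysozyme M, and Ctss, which encodes the lysosomal protease cathepsin S. Lyz2 was at 10.75, 10.81 and 10.87 log2 CPM in CCN3 replicates 1, 2 and 3, against 10.99, 10.89 and 10.86 log2 CPM in PBS replicates 1, 2 and 3. Ctss had 9.51, 9.58 and 9.67 log2 CPM in CCN3 replicates 1, 2 and 3, against 9.71, 9.58 and 9.54 log2 CPM in PBS replicates 1, 2 and 3. Neither separated the groups, with Log2FC values of -0.11 ± 0.09 for Lyz2 and -0.02 ± 0.08 for Ctss (adjusted p in limma of 0.754 and 0.958). Lyz2 also has a close copy, Lyz1, with a Log2FC of -0.21 ± 0.14.

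The remaining general genes differed by at most 0.10 log2 units. Csf1r, the receptor for the growth factor that macrophages need to survive, had a Log2FC of -0.10 ± 0.07. Adgre1, which encodes the F4/80 antigen, had -0.10 ± 0.08, and Mertk, a receptor for the clearance of dead cells, had -0.0043 ± 0.15. The endosomal glycoprotein gene Cd68 and the scavenger receptor gene Msr1 were on the positive side with Log2FC values of 0.07 ± 0.07 and 0.04 ± 0.07. The adjusted p of these 5 genes in limma was between 0.672 and 0.996, and the groups overlapped for each.

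The summed level of the general macrophage genes was 3565 to 3895 CPM in the CCN3 libraries, against 3779 to 4072 CPM in the PBS libraries. A set of 13 further myeloid surface and complement genes had 0 passing genes and a median Log2FC of -0.04, and 7 of the 13 had CCN3 libraries wholly below the PBS libraries, beside 18.2% of all genes. For 2 of the 7, the complement genes C1qb and C1qc, named after their values were seen, the Log2FC was only -0.03 each. The smallest p among these belonged to Tyrobp, the adaptor DAP12 of activating myeloid receptors, with a Log2FC of -0.17 ± 0.05 (limma, adjusted p 0.336). The 6 pan-leukocyte markers, which are shared with other white blood cells, summed to 744 to 767 CPM in the CCN3 libraries, against 792 to 816 CPM in the PBS libraries, with 0 of 6 passing, 1 of 6 without overlap between the groups and Cd52 lowest in p at -0.28 ± 0.10 (limma, adjusted p 0.370). The summed level of the 6 measured T cell markers was 8.54 to 8.96 CPM in the CCN3 libraries, against 11.1 to 11.8 CPM in the PBS libraries, with 3 of 6 genes wholly lower, 3 overlapping and 0 passing. Cd4, the most abundant of them, had a Log2FC of -0.48 ± 0.15 (limma, adjusted p 0.336). The T cell markers Cd3d and Cd3e were below 0 log2 CPM in every library, and such values do not show whether a gene was detected. The part of other leukocytes in the lower Fcgr1, Plac8 and Ly6c2 values was not tested.

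The 8 inflammatory genes showed no common direction, with 4 positive, 4 negative and a median Log2FC of 0.03. Il6, Il1b and Tnf encode cytokines that activated macrophages release early after injury, and all were low in level. Il6 measured 2.96, 1.54 and 1.77 log2 CPM in CCN3 replicates 1, 2 and 3, against 2.01, 0.97 and 1.73 log2 CPM in PBS replicates 1, 2 and 3. Replicate 1 had the highest value in both groups. The Log2FC of Il6 was 0.52 ± 0.45 (95% interval -0.55 to 1.60, limma, adjusted p 0.750). Its adjusted Log2FC moved between -0.19 without PBS replicate 2 and 1.52 without CCN3 replicate 2, where Il6 passed. Replicate 1 was also the highest in both groups for Il1b, and for Tnf it stood out in the CCN3 group only, with Log2FC values of 0.20 ± 0.34 and -0.0079 ± 0.46. Without CCN3 replicate 2, Il1b passed at an adjusted Log2FC of 0.94, whereas without PBS replicate 2 it was -0.32.

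Cd86 encodes a costimulatory ligand for T cells that is taken as a mark of inflammatory macrophages. Cd86 stood at 3.90, 3.59 and 3.65 log2 CPM in CCN3 replicates 1, 2 and 3, against 4.01, 3.78 and 3.94 log2 CPM in PBS replicates 1, 2 and 3. One CCN3 library lay within the PBS range, and the Log2FC was -0.20 ± 0.12 (limma, adjusted p 0.645). Tlr4 and Tlr2 encode receptors for microbial products and for molecules from damaged cells. Tlr4 was at 6.78, 6.78 and 6.83 log2 CPM in CCN3 replicates 1, 2 and 3, against 6.93, 6.84 and 6.84 log2 CPM in PBS replicates 1, 2 and 3. Tlr2 had 5.43, 5.02 and 5.0 log2 CPM in CCN3 replicates 1, 2 and 3, against 5.06, 4.91 and 5.13 log2 CPM in PBS replicates 1, 2 and 3. The groups were barely apart for Tlr4 and overlapped for Tlr2, with Log2FC values of -0.08 ± 0.06 and 0.12 ± 0.14 (adjusted p in limma of 0.724 and 0.820). Cd14, the coreceptor of Tlr4, and Nos2, the inducible nitric oxide synthase, had Log2FC values of 0.07 ± 0.09 and -0.06 ± 0.16.

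Of 13 further genes of inflammatory signalling, 9 were positive and 4 negative, 0 passed, and the median Log2FC was 0.04. Tnfaip3, which encodes the NF-kB inhibitor A20, had the smallest p and was higher in all 3 CCN3 libraries than in any PBS library, with a Log2FC of 0.44 ± 0.11 (limma, adjusted p 0.262). Among 11 growth factor and transcription factor genes of macrophages, 9 were positive, 0 passed, and Nr4a1, a nuclear receptor required for Ly6C-low monocytes in mice, had the smallest p at a Log2FC of 0.45 ± 0.13 (limma, adjusted p 0.282).

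The 11 repair genes had 8 positive and 3 negative differences, with a median Log2FC of 0.11. Their summed level was 4250 to 4680 CPM in the CCN3 libraries, against 3993 to 4210 CPM in the PBS libraries. Most of this sum came from Apoe, Spp1, Gpnmb and Lgals3. With each gene weighted equally the groups overlapped, at -0.067 to 0.076 log2 units from the gene means in the CCN3 libraries, against -0.068 to 0.044 in the PBS libraries. Lgals3 encodes galectin-3, a lectin abundant in macrophages of the infarct, and lies at chr14:47605208-47623624 on the plus strand. Lgals3 measured 8.33, 8.47 and 8.41 log2 CPM in CCN3 replicates 1, 2 and 3, against 8.04, 8.22 and 8.14 log2 CPM in PBS replicates 1, 2 and 3. Every CCN3 library was above every PBS library, with a Log2FC of 0.27 ± 0.07 (95% interval 0.09 to 0.45, limma, p 0.00994, adjusted p 0.278). Its adjusted Log2FC ranged from 0.15 without CCN3 replicate 2 to 0.37 without PBS replicate 2, where Lgals3 passed.

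Spp1 encodes osteopontin, a secreted phosphoprotein of infarct macrophages, and lies at chr5:104582165-104589235 on the plus strand. Spp1 stood at 10.42, 10.40 and 10.32 log2 CPM in CCN3 replicates 1, 2 and 3, against 10.04, 10.19 and 10.20 log2 CPM in PBS replicates 1, 2 and 3. The lowest CCN3 library was above the highest PBS library, and the Log2FC was 0.23 ± 0.09 (limma, p 0.0332, adjusted p 0.411). Il10, an anti-inflammatory cytokine, was the lowest in level of all 40 genes and went the other way. Il10 was at -0.19, -0.15 and -0.33 log2 CPM in CCN3 replicates 1, 2 and 3, against 0.19, 0.55 and 0.52 log2 CPM in PBS replicates 1, 2 and 3. The groups were apart, with a Log2FC of -0.64 ± 0.24 (limma, p 0.0321, adjusted p 0.408), at levels near 1 CPM where relative counting error, not known here, is largest. Apoe, the apolipoprotein of lipid-laden macrophages, was the most abundant repair gene. Apoe had 10.42, 10.64 and 10.69 log2 CPM in CCN3 replicates 1, 2 and 3, against 10.51, 10.53 and 10.41 log2 CPM in PBS replicates 1, 2 and 3. Its groups overlapped, with a Log2FC of 0.10 ± 0.11 (limma, adjusted p 0.802).

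Ctsk, the collagen-degrading protease cathepsin K, also separated the groups, with means of 5.30 ± 0.06 log2 CPM in CCN3 libraries and 5.15 ± 0.06 log2 CPM in PBS libraries (SD, n = 3 each) and a Log2FC of 0.15 ± 0.07 (limma, adjusted p 0.531). Hmox1, the haem-degrading enzyme haem oxygenase 1, averaged 8.05 ± 0.27 log2 CPM in CCN3 libraries and 7.73 ± 0.12 log2 CPM in PBS libraries (SD, n = 3 each). Its Log2FC was 0.32 ± 0.14 (limma, adjusted p 0.506). The adjusted Log2FC of Hmox1 was 0.50 without CCN3 replicate 1, where it passed, and 0.07 without CCN3 replicate 2. Gpnmb, a transmembrane glycoprotein of lysosome-rich macrophages, had a Log2FC of 0.18 ± 0.09 (limma, adjusted p 0.558), and for Igf1, a growth factor that macrophages supply to heart muscle cells, it was 0.11 ± 0.09 (limma, adjusted p 0.722). Trem2, a lipid-sensing receptor, had 0.04 ± 0.06, and Gas6, a ligand that bridges dying cells to MERTK, had -0.08 ± 0.07. Arg1, the enzyme arginase 1 of alternatively activated macrophages, was low in replicate 1 of both groups and averaged 6.39 ± 0.16 log2 CPM in CCN3 libraries and 6.65 ± 0.32 log2 CPM in PBS libraries (SD, n = 3 each). Its Log2FC was -0.26 ± 0.17 (limma, adjusted p 0.660). Arg1 passed at an adjusted Log2FC of -0.59 once CCN3 replicate 2 was left out and at -0.48 once PBS replicate 1 was. Without PBS replicate 2 the adjusted Log2FC of Arg1 was 0.05.

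Of 14 further genes for the uptake of dead cells, 12 were positive and 0 passed, with a median Log2FC of 0.07 and the smallest p for Itgb5, an integrin chain of the receptor for MFG-E8, at 0.16 ± 0.06 (limma, adjusted p 0.385). Of 13 lysosome genes, 12 were positive, 0 passed and the median was 0.06, led in p by the protease gene Ctsl at 0.14 ± 0.07 (limma, adjusted p 0.577). Of 10 lipid handling genes, 6 were positive and 0 passed, with Plin2, which coats lipid droplets, at 0.24 ± 0.08 (limma, adjusted p 0.342). Of 7 genes of arginine use and alternative activation, 4 were positive and 0 passed, with Il4ra, the receptor for IL-4, at -0.12 ± 0.07 (limma, adjusted p 0.625). Over all 118 measured companion genes, 70 were positive and 48 negative, and 1 passed, which was Mgl2. Several of these genes, as well as Igf1, Gas6, Ctsk and Spp1, are also made by fibroblasts. The 8 fibroblast markers summed to 14629 to 16430 CPM in the CCN3 libraries, against 13761 to 16911 CPM in the PBS libraries. Of these markers 4 were positive and 4 negative, with a median Log2FC of 0.04, and 0 passed. CCN3 libraries lay wholly above PBS libraries for 3 of the 8 and wholly below for 2, beside 15.1% and 18.2% of all genes. The smallest p was that of Gsn, at -0.59 ± 0.15 (limma, adjusted p 0.258).

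All 4 MHC class II genes had a negative Log2FC, with a median of -0.21, and none separated the groups. H2-Aa, H2-Ab1 and H2-Eb1 encode chains of the class II molecules that show peptides to CD4+ T cells, and Cd74 encodes the invariant chain that guides those molecules through the cell. In the heart they are made by some macrophages and by dendritic cells and B cells. The class II genes are known to be switched on together through short conserved promoter boxes, of which the Y box, an inverted CCAAT sequence, is bound by the factor NF-Y. The promoters of H2-Aa (chr17:34287774-34288073, minus strand) and H2-Eb1 (chr17:34305617-34305916, plus strand) are shown because both hold this box, written CTGATTGG and set in capitals, at 51 and 62 bases before the gene start. Sequences and positions are those of RefSeq on GRCm38.p6, an earlier build than the one used for the measurements, and run 5′ to 3′ over 250 bases before to 50 bases after the start.
H2-Aa promoter: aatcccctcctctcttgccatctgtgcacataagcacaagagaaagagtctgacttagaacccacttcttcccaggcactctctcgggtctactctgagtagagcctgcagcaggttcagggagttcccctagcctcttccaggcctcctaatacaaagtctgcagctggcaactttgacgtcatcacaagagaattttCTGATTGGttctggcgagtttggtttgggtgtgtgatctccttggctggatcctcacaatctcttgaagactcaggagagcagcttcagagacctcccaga
H2-Eb1 promoter: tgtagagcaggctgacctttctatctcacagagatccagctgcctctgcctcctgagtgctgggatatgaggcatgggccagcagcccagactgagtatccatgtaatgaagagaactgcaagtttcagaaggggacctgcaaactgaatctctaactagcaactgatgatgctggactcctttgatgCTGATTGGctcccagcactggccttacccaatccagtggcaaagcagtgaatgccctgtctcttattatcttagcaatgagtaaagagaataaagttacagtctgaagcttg
On either strand these letters stood in 1346 of 32851 RefSeq promoter windows of the same length (4.10%), and in 5 of the 34 windows of macrophage genes. These belonged to 5 of the 27 macrophage genes that had a window, the other 3 being Il6, Plac8 and Spp1. H2-Ab1 and Cd74 were not among the 5.

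H2-Aa and H2-Eb1, the genes of these promoters, had the same order of libraries within each group as Cd74. H2-Aa measured 6.74, 6.53 and 6.81 log2 CPM in CCN3 replicates 1, 2 and 3, against 7.31, 6.69 and 6.81 log2 CPM in PBS replicates 1, 2 and 3. H2-Eb1 stood at 6.25, 6.03 and 6.32 log2 CPM in CCN3 replicates 1, 2 and 3, against 6.79, 6.15 and 6.28 log2 CPM in PBS replicates 1, 2 and 3. PBS replicate 1 was the highest of the 6 libraries and CCN3 replicate 2 the lowest for both genes. Cd74 was at 7.61, 7.36 and 7.65 log2 CPM in CCN3 replicates 1, 2 and 3, against 8.13, 7.49 and 7.63 log2 CPM in PBS replicates 1, 2 and 3. The Log2FC was -0.24 ± 0.17 for H2-Aa, -0.20 ± 0.17 for H2-Eb1, -0.21 ± 0.18 for Cd74 and -0.09 ± 0.18 for H2-Ab1 (adjusted p in limma of 0.692, 0.751, 0.748 and 0.915). PBS replicate 1 was the highest and PBS replicate 2 the lowest PBS library for 4 of 4 genes, and CCN3 replicate 2 was the lowest CCN3 library for 4 of 4. All 4 genes passed without PBS replicate 2, with adjusted Log2FC values between -0.53 and -0.40. Without CCN3 replicate 2 the adjusted Log2FC of the 4 genes was positive, between 0.06 and 0.25. These values are adjusted for the removed factors and are not differences between library means. In the annotation on GRCm39, H2-Aa and H2-Eb1 lie on opposite strands and overlap at their starts (chr17:34493404-34506798 and chr17:34504236-34535648), whereas the RefSeq promoter windows shown above lie apart.

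**Figure D3:**
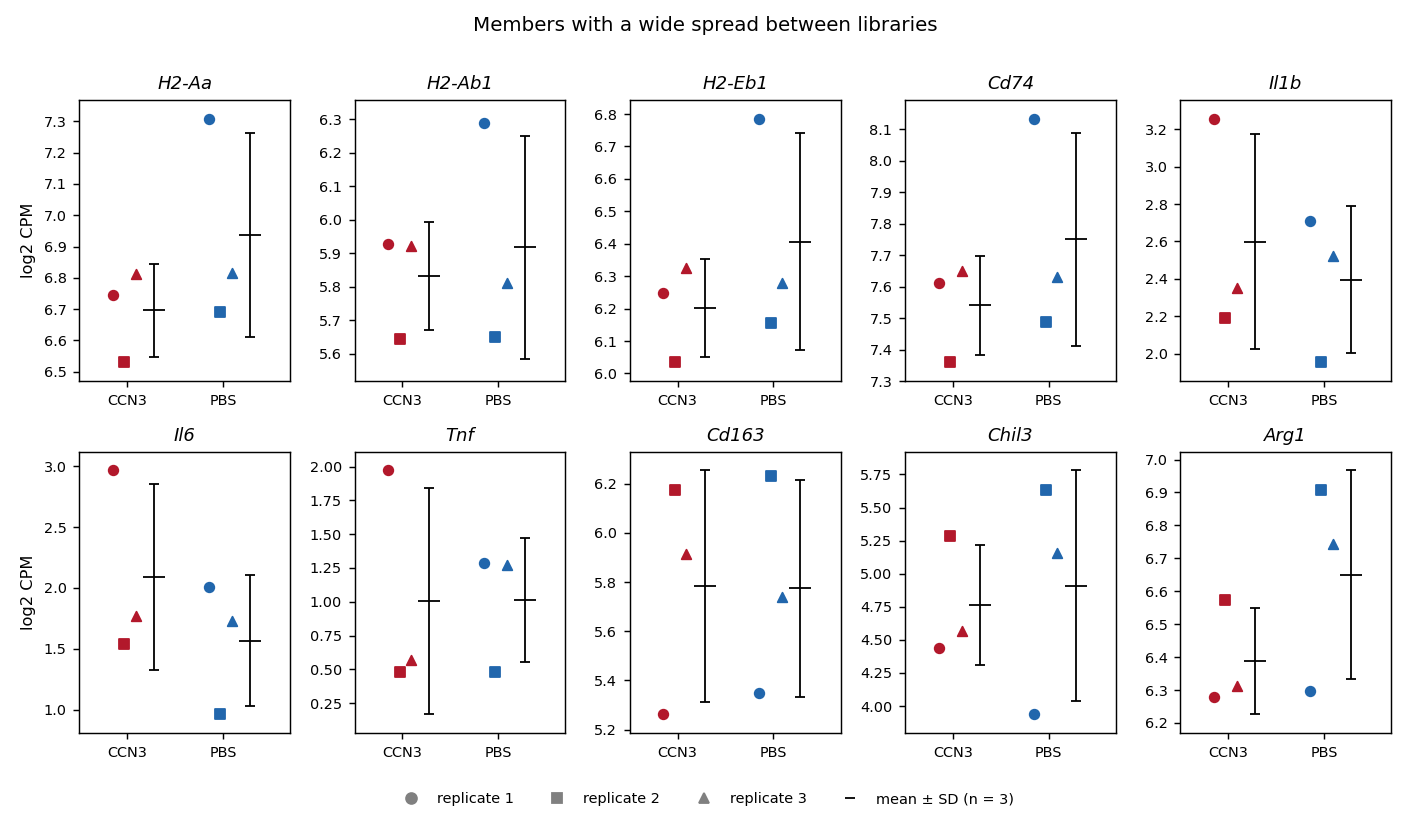
Log2 CPM of 10 macrophage genes with a wide spread between libraries, CCN3 left of PBS, with replicates by symbol and the mean ± SD (n = 3) beside the points; panels have their own ranges and do not start at 0. The groups overlap in each panel, and the spread within a group, such as 5.26 to 6.18 for Cd163 in CCN3 libraries, is wider than the difference between group means.

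Of 14 further genes of the class II pathway, 5 were positive, 9 negative and 0 passed, with a median Log2FC of -0.02. Nfya, which encodes a subunit of NF-Y, had the smallest p at 0.10 ± 0.06 (limma, adjusted p 0.592), and Ciita, the coactivator on which class II transcription depends, chosen after its values were seen, was at -0.01 ± 0.18 (limma, adjusted p 0.991). The 8 dendritic cell markers summed to 37.6 to 40.9 CPM in the CCN3 libraries, against 37.3 to 45.3 CPM in the PBS libraries, and the 5 measured B cell markers to 35.6 to 40.4 CPM in the CCN3 libraries, against 36.5 to 41.0 CPM in the PBS libraries. None of these passed. Of the dendritic cell markers 4 were positive and 4 negative, with a median Log2FC of -0.13. Of the B cell markers 2 were positive and 3 negative, with a median of -0.05. The genes with the smallest p were Xcr1 at -0.72 ± 0.35 (limma, adjusted p 0.540) and Cd79b at -0.15 ± 0.12 (limma, adjusted p 0.727). The groups overlapped for both, and Xcr1 lay between -0.57 and 1.02 log2 CPM, a low level where relative counting error is large. The part of dendritic cells and B cells in the class II values was not tested.

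**Figure D4:**
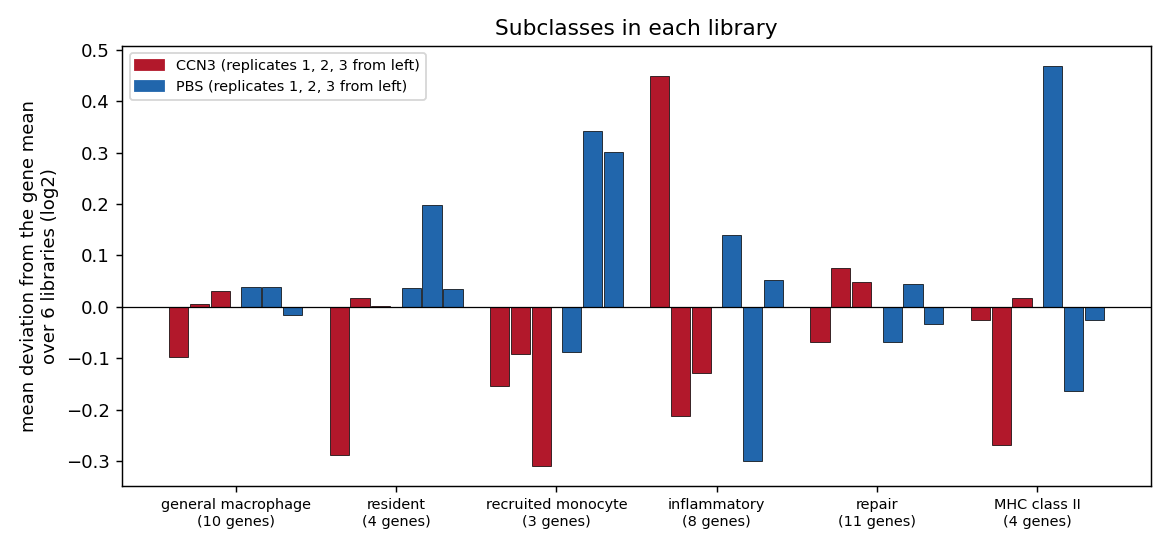
Mean difference of each library from the 6-library mean (log2 CPM), averaged over the genes of each subclass, CCN3 left of PBS, 1 bar per library in replicate order. For the 4 MHC class II genes PBS replicate 1 stands at 0.47 above the mean, and for the 8 inflammatory genes CCN3 replicate 1 stands at 0.45, apart from the other libraries of their groups.

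Across subclasses, replicates 1 and 2 were often at an end of their group. With 3 libraries per group, all but 1 are at an end for any gene. CCN3 replicate 1 was the highest CCN3 library for 7 of 8 inflammatory genes and the lowest for 4 of 4 resident, 8 of 11 repair and 7 of 10 general macrophage genes. PBS replicate 1 was the highest PBS library for 6 of 8 inflammatory and 4 of 4 class II genes. PBS replicate 2 was the lowest PBS library for 6 of 8 inflammatory and 4 of 4 class II genes and the highest for 7 of 11 repair genes. CCN3 replicate 2 was the lowest CCN3 library for 5 of 8 inflammatory and 4 of 4 class II genes. The 8 cardiomyocyte markers, as a view of how much muscle RNA each library held, summed to 25036 to 27141 CPM in the CCN3 libraries, against 25953 to 30449 CPM in the PBS libraries. Of these markers 5 were positive and 3 negative, and Tnni3, cardiac troponin I, was the only one that passed, having fallen by 0.44 on the log2 scale (limma, adjusted p 0.177), and like Mgl2 it did not pass without any 1 of the CCN3 libraries or without PBS replicate 3. The part of tissue make-up in the macrophage values was not tested.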

How the data were processed

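Left ventricle RNA was sequenced in 6 libraries, 3 from CCN3 treated and 3 from PBS treated mice. Per the submitters' processing notes and the study's methods, reads were assigned to GRCm39 transcripts with Salmon 1.4.0 and analysed with edgeR. The authors deposited log2 CPM values from which they had removed 2 RUV factors. The sources used here give neither the low-count filter nor the prior count. The authors' comparison columns (fold changes, p-values and false discovery rates) were not used.

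After group centring, the deposited values lacked 2 of 4 directions between libraries (singular value below 1e-06 of the largest). These directions were entered beside treatment, leaving 2 residual degrees of freedom. How far the removed factors followed treatment cannot be read from the values, so SEs may be too small. The tests used limma 3.58.1 under R 4.3.3 (empirical Bayes with a trend, two-sided), and the script was tested on simulated data.

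Members and lists were chosen with earlier results of these data known. By rule every member was named, with values per library for the 3 of each subclass with the smallest p and the 2 highest in level, and from the other lists each gene that passed and the 1 with the smallest p. Companion lists had 118 of 119 genes measured. Cell type markers that were not in the table (such as Ly6g and Ighm) were not analysed here. Gene positions are from GENCODE on GRCm39. Alternatives were no trend, median centring, a filter on the mean, 1 added CPM, a replicate block and leaving out each library.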

Additional observations from a re-analysis of the deposited data

How the results depend on the processing

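Over all genes, 254 passed, and 174 did after each library was centred on its median, 272 of the 13415 genes whose mean reached 1 log2 CPM, and 224 with 1 CPM added before the log. Only 1 gene passed in limma without a mean-variance trend, which was neither Mgl2 nor Tnni3 (both at an adjusted p of 0.403). None of the macrophage genes passed under these 4 alternatives (5 to 7 had an unadjusted p under 0.05), and Il10 could not be fitted under the filter on the mean. Of 199 member values under these and the replicate block, 196 kept their direction. The exceptions were Mertk (0.011) and Tnf (0.0071) after median centring and Tnf (0.018) with 1 CPM added, and among the 27 other genes followed Ciita (0.0010) after median centring. Lyve1 was not followed under the alternatives. The cause was not tested.

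Same-numbered libraries are not stated to be pairs, and their deviations from the group means correlated at 0.127, 0.968 and -0.977 for numbers 1, 2 and 3, so the numbers were not taken to pair the samples. With the replicate number as a block in place of the removed directions, 5932 genes and 16 macrophage genes passed. That fit takes no account of the directions along which the values do not vary, so its SEs may be too small and its counts too high. A block beside those directions left no residual degrees of freedom.

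With 1 library left out, between 0 and 685 genes and between 0 and 8 macrophage genes passed, on 1 residual degree of freedom. All Log2FC values and directions of these fits are adjusted for the removed factors and are not differences between library means. The counts over all genes were 56, 553 and 0 without CCN3 replicates 1, 2 and 3 and 494, 685 and 0 without PBS replicates 1, 2 and 3, and at the counts of 0 there were 1141 (CCN3) and 941 (PBS) genes with an unadjusted p under 0.05 in limma. The median Log2FC of the subclasses then ranged as follows over the 6 fits, general macrophage -0.17 to -0.028, resident -0.34 to -0.047, recruited monocyte -0.59 to -0.22, inflammatory -0.25 to 0.31, repair -0.024 to 0.18 and MHC class II -0.51 to 0.11. The 25 genes whose direction changed had these lowest and highest Log2FC values, Adgre1 -0.23 to 0.0013, Cd68 -0.018 to 0.14, Mertk -0.32 to 0.20, Msr1 -0.021 to 0.13, Ctss -0.16 to 0.039, Maf -0.0028 to 0.20, Cd163 -0.70 to 0.55, Mrc1 -0.19 to 0.061, Chil3 -1.08 to 0.71, Cd14 -0.017 to 0.21, Tlr2 -0.049 to 0.36, Il1b -0.32 to 0.94, Tnf -0.64 to 0.94, Il6 -0.19 to 1.52, Nos2 -0.33 to 0.26, Cd86 -0.35 to 0.020, Trem2 -0.035 to 0.076, Arg1 -0.59 to 0.046, Igf1 -0.024 to 0.21, Apoe -0.053 to 0.20, Gas6 -0.20 to 0.0081, H2-Aa -0.53 to 0.057, H2-Ab1 -0.40 to 0.25, H2-Eb1 -0.50 to 0.099 and Cd74 -0.52 to 0.12. Of the other genes followed, Clec10a (-0.091 to 0.37), Ccr2 (-0.38 to 0.044), Ciita (-0.29 to 0.27) and Ccn3 (-0.087 to 0.19) changed direction. Precision is limited by the 2 residual degrees of freedom, by variation that the authors removed and by an unknown read depth.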

Other observations

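Endothelial markers, which no comparison above uses, had a negative Log2FC (CCN3 minus PBS) for 6 of 6 genes, with a median of -0.09, and 0 passed. Their summed level was 953 to 1111 CPM in the CCN3 libraries, against 1047 to 1122 CPM in the PBS libraries. The smallest p was that of Kdr, a receptor for vascular endothelial growth factor, with a Log2FC of -0.22 ± 0.07 (limma, adjusted p 0.345, n = 3 each). Endogenous Ccn3, chosen after its values were seen, had a Log2FC of 0.09 ± 0.11 (limma, adjusted p 0.837), with 3.63 ± 0.09 log2 CPM in CCN3 libraries and 3.53 ± 0.14 log2 CPM in PBS libraries (SD, n = 3 each).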
